A study of Mus musculus with 16 samples.

Results

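The right neocortex rostral from bregma, a landmark of the skull, was compared between operated adult C57BL/6J mice (ABI 4W) and unoperated mice 10 weeks old (NC 10W). In ABI 4W, an area of the left cerebral cortex that included the sensorimotor cortex had been removed by suction 4 weeks earlier. These 2 conditions make up 4 of the 16 arrays and 2 of the 8 pools of the series, and they were chosen by their titles alone. The surgery was made at 8 to 12 weeks of age, and the labels give 15 weeks as the age of the ABI 4W animals when the tissue was taken. Each condition is 1 pool of RNA from several male animals, labeled once with Cy3 for 1 slide and once with Cy5 for another, so the dyes are technical repeats and no difference has a biological replicate or a p-value. The control animals had no sham operation, were younger, and lay in another row of each slide, and the effects of surgery, age and row cannot be told apart here. The other pools, used below only as a reference, are controls at postnatal days 7, 14 and 35 (NC P7, NC P14, NC P35), mice operated on at day 7 and sampled 1 and 4 weeks later (NBI 1W, NBI 4W), and mice operated on as adults and sampled 1 week later (ABI 1W).

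The cortex opposite a large lesion loses its callosal input from the damaged side while its own output neurons remain, and it is the source of the corticospinal fibers that can sprout toward the denervated side of the spinal cord. Microglia and astrocytes are the cells of the brain that respond to degenerating axons, the former by phagocytosis and the latter by raising intermediate filaments and secreted factors. The frontal neocortex lies close to tissues with very different gene expression, namely the striatum below it, the olfactory bulb in front of it, and the lateral ventricle with its ependyma and choroid plexus, the epithelium that secretes the cerebrospinal fluid.

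A level is given below as the log2 of the background-subtracted signal relative to the 75th percentile of the same array, and a difference as the level in ABI 4W minus that in NC 10W with the same dye. The limits for a call, which both dyes had to pass, were a ratio of ABI 4W to NC 10W of 1.5 or more (higher) or of 0.75 or less (lower). Of 20145 genes with a named probe, 16152 were compared, that is, in 1 pool or both the Cy3 and the Cy5 signal of their probe stood well above background, and not all 4 signals were saturated. Of the genes compared, 134 (0.83%) were called higher and 119 (0.737%) lower, or 253 (1.57%) in all. The levels were below the background on at least 1 array of a pool for 30 of the higher and 41 of the lower genes, whose differences are therefore bounds, written as at least N-fold. The median difference over all genes was 0.05 (0.09 with Cy3, 0.02 with Cy5). Across genes, the differences with Cy3 and Cy5 correlated with r = 0.31 (genes are not independent replicates), and for 30 genes one dye passed the upper and the other the lower limit. When the genes measured in both pools were divided by brightness into 4 classes of equal size, the Cy3 and Cy5 differences deviated from each other with an SD of 0.48 in the dimmest class and 0.29 in the brightest. The dimmest class held 56 of the 104 higher and 59 of the 78 lower genes measured in both pools. Without scaling between the arrays, 51 genes were called higher and 498 lower, so that the share of lower calls was 90.7% in place of 47.0%, and the median of all genes moved from 0.05 to −0.11.

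**Figure D1:**
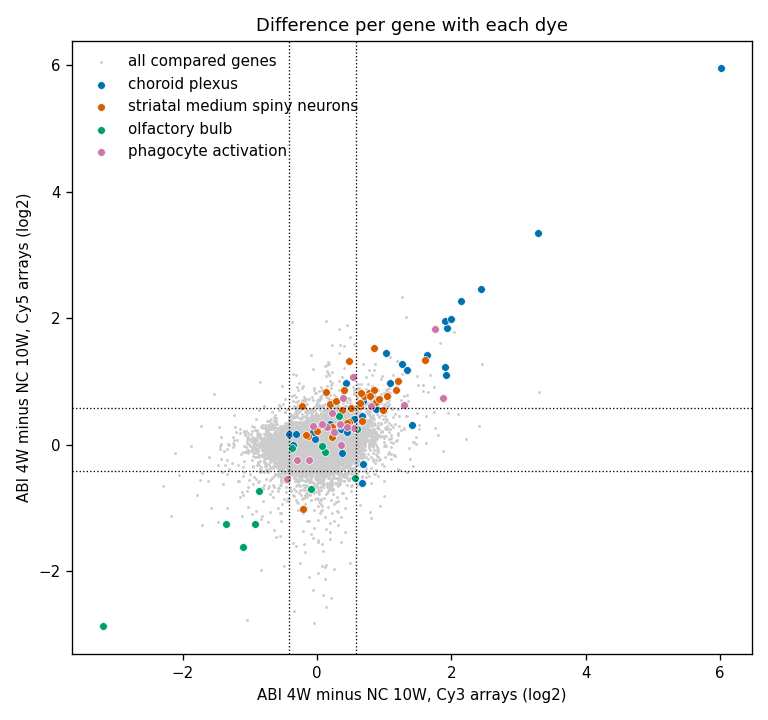
Difference between ABI 4W and NC 10W for each compared gene (log2), with the Cy3 arrays on the horizontal and the Cy5 arrays on the vertical axis. Gray points are all 16152 genes, colored points are the members of 4 gene lists, and dotted lines mark the limits of 1.5-fold and 0.75-fold. The choroid plexus genes extend to a difference of 6.01 and 5.95 (*Ttr*), and the lowest olfactory bulb gene lies at −3.18 and −2.88 (*Ms4a15*).

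The genes of the choroid plexus held the highest differences. Of 38 genes listed for this tissue 36 were on the array and 34 were compared, and 15 of them were called higher and none lower, against 0.83% and 0.737% of all genes. The median difference of the list was 0.70 (0.69 with Cy3, 0.56 with Cy5), and 25 of the 34 genes had a positive difference with both dyes, against 36.8% of all genes. Some called genes entered the comparison through ABI 4W alone. Without the genes given as bounds the median was 0.63, and 11 of 28 genes were called higher. The summed linear signal of the members, in units of the array's 75th percentile, was 45.3 and 45.7 in NC 10W (Cy3 and Cy5) and 86.9 and 82.2 in ABI 4W. Since the tissue was measured in bulk, more cells of a type and more RNA per cell cannot be told apart.

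*Ttr* (NM_013697), which encodes the thyroxine carrier transthyretin that the choroid plexus secretes into the cerebrospinal fluid, lay at −1.30 (Cy3) and −1.25 (Cy5) in NC 10W and at 4.71 and 4.70 in ABI 4W. Both arrays of ABI 4W lay far above both of NC 10W, and the difference was 5.98 on the mean of both dyes, or 63.3-fold. *Kcne2* (NM_134110), the beta subunit of a potassium channel of the choroid epithelium, was not well above background on either array of NC 10W and lay at −1.71 and −1.87 in ABI 4W, which made it at least 9.97-fold higher. *Steap1*, a membrane protein, was likewise not above background in NC 10W, lay at −2.76 and −2.75 in ABI 4W, and was at least 5.48-fold higher.

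*Folr1* (NM_008034), the folate receptor that carries folate across the choroid plexus, lay at −2.79 and −3.15 in NC 10W and at −0.64 and −0.88 in ABI 4W, or 4.62-fold higher. A second probe of *Folr1* had a difference of 0.13 and was not called. *Kl*, the aging-related coreceptor Klotho, lay at −3.73 and −3.83 in NC 10W and at −1.81 and −1.88 in ABI 4W, or 3.81-fold higher. *Krt18*, a keratin of simple epithelia, rose 3.97-fold, and *Ecrg4*, a secreted peptide precursor of the choroid epithelium, rose 3.71-fold. In each of these genes both arrays of ABI 4W lay above both arrays of NC 10W, and the dyes gave differences of similar size (1.94 and 1.84 for *Ecrg4*, 2.00 and 1.98 for *Krt18*).

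The chloride channel protein *Clic6* (difference 1.64 and 1.42 with Cy3 and Cy5), the water channel *Aqp1* (1.51 on the mean of both dyes), the coagulation factor *F5* (1.27 and 1.28), the secreted BMP and Wnt antagonist *Sostdc1* (1.04 and 1.45), the cytochrome oxidase subunit *Cox8b* (1.08 and 0.97) and the lipopolysaccharide binding protein *Lbp* (0.69 and 0.69) were measured in both pools and were called higher. *Calml4*, a calmodulin-like protein, and *Otx2*, the homeobox factor on which choroid plexus development depends, were above background on 1 of 2 arrays of NC 10W, and *Otx2* was at least 2.96-fold higher in ABI 4W (−2.95 and −3.10 against −4.86 and −4.33). The genes of the list without a call included *Enpp2* (0.36 and 0.24), *Car12* (0.88 and 0.56) and *Kcnj13* (1.42 and 0.30). *Tmem72* had the lowest difference (−0.18 on the mean of both dyes), and the tight junction genes *Cldn1* and *Cldn2* were not well above background in either pool.

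Since *Otx2* was among the called genes, the promoter windows of the called members (from 250 bases before to 50 after each start, RefSeq, GRCm38.p6) were searched on both strands for TAATCC, the core recognized by Otx proteins. Windows on 1 chromosome were left out for the called genes but kept among all windows, so the shares do not cover the same chromosomes. Windows were searched for 10 of the 15 genes (14 windows). Of these, 1 window held the motif, or 7.1%, beside 7.1% of all 32851 windows. That window belongs to *Otx2* itself (chr14:48665060-48665359, minus strand) and is shown here, 5′ to 3′, with the match, which lies on the opposite strand, in capitals.
Otx2: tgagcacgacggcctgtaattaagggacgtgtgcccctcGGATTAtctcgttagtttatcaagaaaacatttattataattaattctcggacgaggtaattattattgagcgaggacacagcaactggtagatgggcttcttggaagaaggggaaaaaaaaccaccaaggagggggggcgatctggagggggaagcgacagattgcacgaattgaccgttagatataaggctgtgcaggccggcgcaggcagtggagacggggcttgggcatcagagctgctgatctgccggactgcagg

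**Figure D2:**
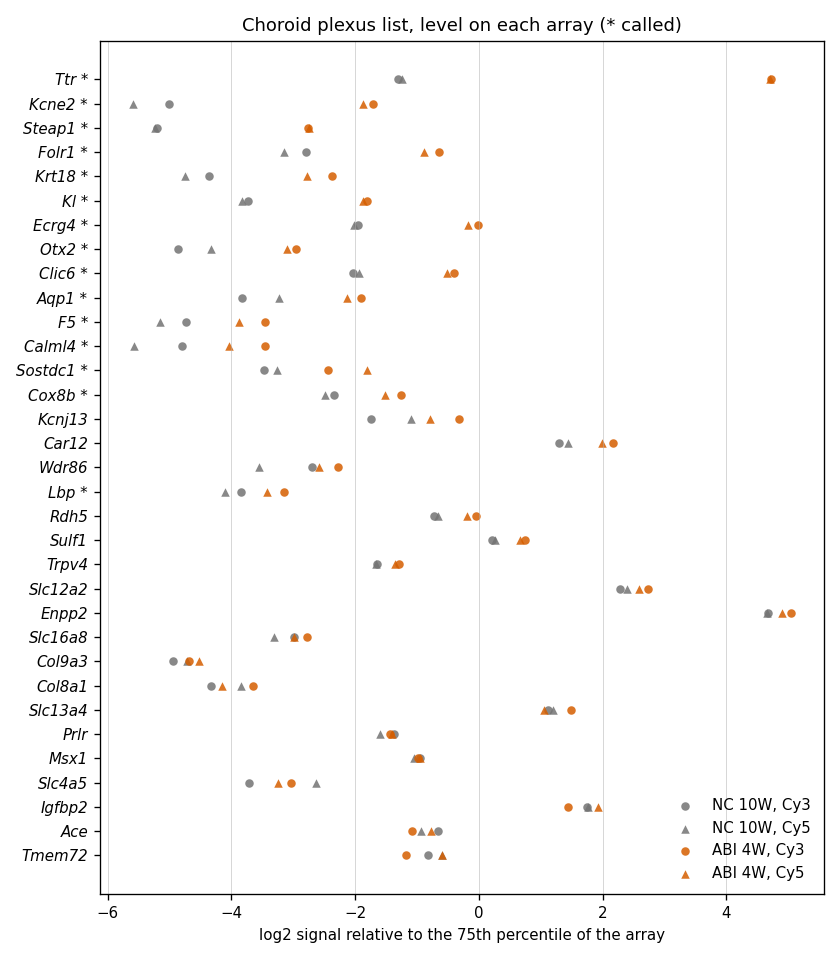
Level of the choroid plexus genes on the 4 arrays, in log2 units relative to the 75th percentile of the array. Gray symbols are NC 10W and orange symbols ABI 4W, circles are Cy3 and triangles Cy5, and an asterisk marks a called gene. Symbols are the measured levels, also where a probe was not well above background. *Ttr* at the top lies at −1.30 and −1.25 in the control and at 4.71 and 4.70 in ABI 4W, and the levels overlap in the lowest rows.

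Over the 8 pools, the choroid plexus genes were not high in ABI 4W alone. *Ttr* lay between −1.74 and 0.34 on the mean of both dyes in the 4 control pools and at −1.42 in ABI 1W, but at 5.05 in NBI 1W and 3.95 in NBI 4W, beside 4.71 in ABI 4W. *Folr1* likewise had −0.51 in NBI 1W and −1.56 in NBI 4W against −0.76 in ABI 4W and −2.77 in ABI 1W. Other members called in ABI 4W were also higher in ABI 1W against NC 10W. The differences there were 2.30 for *Ecrg4*, 2.24 for *Lbp* and 2.10 for *Aqp1*, with bounds of 1.14 for *Steap1* and 0.97 for *Calml4*. *Sostdc1* was lower there (−0.73), and *Ttr*, *Folr1*, *Kl*, *Clic6*, *Cox8b*, *F5* and *Krt18* were not called. *Kl* (−1.84), *Clic6* (−0.46), *Krt18* (−2.57) and *Kcne2* (−1.79) had their highest level of all pools in ABI 4W, and 8 of the 34 genes lay above the 7 other pools with both dyes, against 6.88% of all genes. With NC P35 in place of NC 10W as the control, 17 choroid plexus genes were called higher and the median was 0.80.

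The cells that line the ventricle beside the choroid plexus were followed by genes of the motile cilia. Of 24 genes compared, 2 were called higher, *Ccdc153* (0.82 and 0.93) and *Tmem212* (1.04 and 0.62), and none lower. Of all genes, 0.83% were called higher and 0.737% lower. The median of the list was 0.27, and 15 genes had a positive difference with both dyes, against 36.8% of all genes. *Foxj1*, the master regulator of motile cilia, had differences of 0.36 and 0.35, the axonemal gene *Cfap126* 0.95 and 0.57, and *Tekt1* 0.58 and 0.47, none of which passed both limits. Among the called genes outside the lists, *Dnali1*, an axonemal dynein light chain (1.05 and 0.61), and *Rfx3*, a regulator of ciliary genes (0.59 and 0.63, with 2 other probes at −0.10 and 0.28), were higher and were chosen for mention after their values had been seen. In the leptomeninges list no gene of 30 compared was called, and its median was −0.09.

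The second group of higher genes was that of the medium spiny neurons of the striatum, the projection neurons of the basal ganglia. All 32 genes listed were compared, 14 were called higher and none lower (0.83% and 0.737% of all genes), and 28 had a positive difference with both dyes (36.8% of all genes). The median of the list was 0.63 (0.57 with Cy3, 0.67 with Cy5). The summed signal of the members was 254.4 and 247.9 in NC 10W and 365.2 and 383.3 in ABI 4W. These genes are also expressed at lower levels in neurons of the cortex.

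Among the receptors of these neurons, *Drd1*, the dopamine D1 receptor of the direct pathway, lay at 0.23 and 0.22 in NC 10W and at 1.00 and 1.03 in ABI 4W, or 1.73-fold higher. *Adora2a*, the adenosine receptor of the indirect pathway, lay at 1.14 and 0.94 in NC 10W and at 1.99 and 2.46 in ABI 4W, or 2.28-fold higher. *Drd2*, the D2 receptor, had differences of 0.19 and 0.64 and was not called. Both arrays of ABI 4W lay above both of NC 10W for both called receptors.

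Among the signaling proteins, *Rgs9*, which limits dopamine receptor signaling, lay at 3.22 and 3.29 in NC 10W and at 4.42 and 4.30 in ABI 4W, or 2.15-fold higher, and 1 of its 2 other probes was called as well. The phosphodiesterases *Pde10a* (0.66 and 0.81) and *Pde1b* (0.63 and 0.60), the adenylate cyclase *Adcy5* (0.89 and 0.68) and the G protein subunit *Gng7* (0.69 and 0.76) were called higher, although a second probe of *Gng7* had −0.03 and the 2 other probes of *Adcy5* 0.52 and 0.59, without a call. *Ppp1r1b*, the phosphoprotein DARPP-32, had 0.13 and 0.83 and was not called. Of the neuropeptide genes, *Tac1*, the substance P precursor, rose by 0.93 and 0.73, *Penk* (0.45 and 0.35) did not reach the limits, and *Pdyn*, the dynorphin precursor, had −0.20 and −1.02. *Pdyn* was thus the only gene of the list with negative differences in both dyes.

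The remaining called members were *Ido1* (2.78-fold), a tryptophan-degrading enzyme, *Slc35d3* (1.18 and 0.86), a regulator of D1 receptor trafficking, *Sh3rf2* (1.05 and 0.78), a scaffold protein, the retinoic acid receptor *Rarb* (0.79 and 0.78, with a second probe at 0.37) and the sodium channel subunit *Scn4b* (0.64 and 0.66). *Serpina9* (1.20 and 0.94), *Lrrc10b* (0.87 and 1.27), *Six3os1*, an RNA transcribed beside the striatal regulator *Six3* (1.05 and 0.89), *Gpx6* (0.62 and 0.84) and *Ankk1*, the neighbor of *Drd2* (0.80 and 0.59), were called higher outside the list, and they were chosen for mention after their values had been seen.

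The result for these genes depended on the control pool. The median level of the striatal list was 1.19 and 1.04 (Cy3 and Cy5) in NC 10W and 1.91 and 2.23 in ABI 4W, but 1.68 and 1.70 in NC P35 and 1.90 and 1.86 in NC P14. With NC P35 as the control, the list median was 0.07 and none of the 31 genes compared was called, and *Drd1* changed its direction (−0.01). Relative to the other pools, ABI 4W was the highest with both dyes for 11 of the 32 genes, against 6.88% of all genes. Among these were *Rgs9* (4.36 on the mean of both dyes, against 4.12 in NC P14 and 3.95 in NC P35) and *Tac1*. Without scaling between arrays 3 genes of the list were called higher, and with quantile normalization and loess *Gng7*, *Pde10a*, *Pde1b* and *Scn4b* were no longer called.

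**Figure D3:**
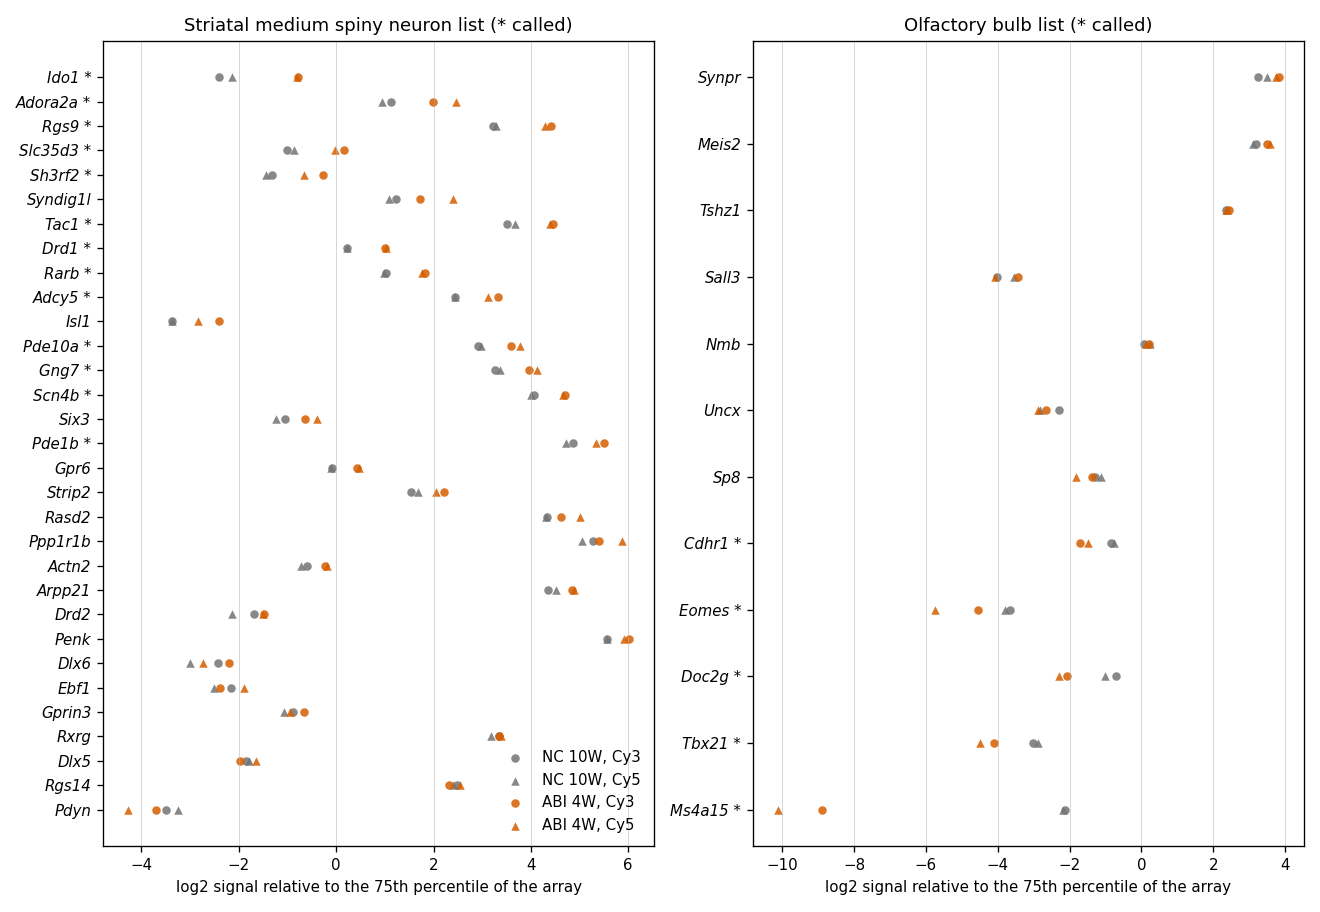
Level of the striatal (left) and olfactory bulb (right) genes on the 4 arrays, in log2 units relative to the 75th percentile of the array. Gray symbols are NC 10W and orange symbols ABI 4W, circles are Cy3 and triangles Cy5, and an asterisk marks a called gene. For the striatal genes with an asterisk the orange symbols lie to the right of the gray ones, and for 5 olfactory bulb genes they lie to the left.

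Several genes of the olfactory bulb were lower. Of 15 genes listed, 12 were compared, 5 were called lower and none higher, against 0.737% and 0.83% of all genes, and the median difference was −0.30 (−0.22 with Cy3, −0.61 with Cy5). *Doc2g*, a C2 domain protein, lay at −0.72 and −1.03 in NC 10W and at −2.07 and −2.29 in ABI 4W, or 2.47-fold lower. *Tbx21*, a T-box factor of mitral and tufted cells, lay at −3.01 and −2.87 in NC 10W and at −4.11 and −4.50 in ABI 4W, or 2.57-fold lower. *Cdhr1*, a protocadherin of the same neurons, fell by 0.86 and 0.73.

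*Ms4a15*, a member of the membrane-spanning family, lay at −2.12 and −2.19 in NC 10W and was not well above background in ABI 4W, so that it was at least 8.16-fold lower. *Eomes*, a T-box factor of glutamatergic progenitors and of mitral cells, was above background on 1 of 2 arrays in ABI 4W and was at least 2.12-fold lower. In contrast, *Synpr* (0.59 and 0.25) and *Meis2* (0.33 and 0.45), which are expressed in the bulb and in other forebrain regions, had positive differences without a call. The summed signal of the list, 26.9 and 28.5 in NC 10W and 33.3 and 32.5 in ABI 4W, therefore moved the other way from its median. Without the genes given as bounds the median was −0.10, and 3 of 10 genes were called lower.

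The list had its highest medians in NC 10W and NC P35, with values of −1.07 (both dyes) and −1.08 and −1.20, against −1.89 and −2.05 in ABI 4W, while NC P7 had −1.21 and −1.23 and NC P14 −1.98 and −2.01. The other operated pools had −1.78 and −1.96 (NBI 1W), −2.32 and −2.34 (NBI 4W) and −1.92 and −1.99 (ABI 1W), close to ABI 4W. *Doc2g* was at −2.18 in ABI 4W on the mean of both dyes, beside −2.40 in NBI 1W, −2.20 in NBI 4W and −2.14 in ABI 1W. The markers of the tissues around the neocortex thus differed between these pools in several directions at once, namely higher for choroid plexus and striatum and lower for olfactory bulb, and their part in the other differences was not tested.

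Other subcortical lists showed no such pattern. In the hypothalamus and basal forebrain list 1 of 26 genes was called higher, *Avp*, the vasopressin precursor (0.80 and 0.83), with a list median of 0.01, and *Avp* had −1.75 against NC P35. In the thalamus list *Nexn*, an actin binding protein that is also expressed in the striatum, was higher (1.07 and 0.99) and *Calb2*, calretinin, was lower. *Calb2* is a marker of interneurons too, lay at −3.00 and −3.12 in NC 10W and at −4.47 and −4.33 in ABI 4W, or 2.54-fold lower, and had its lowest level of all 8 pools there. No gene of the hippocampus list was called.

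**Figure D4:**
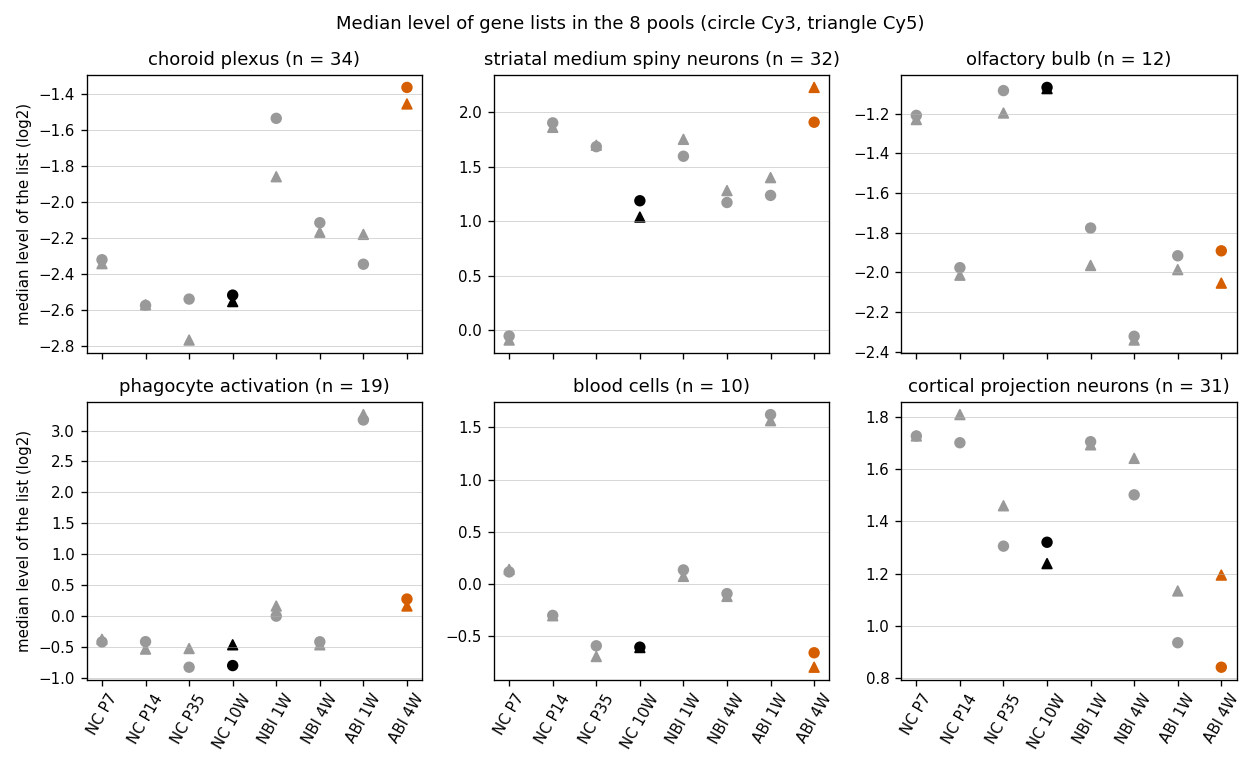
Median level of 6 gene lists in the 8 pools (log2 relative to the 75th percentile of the array), with circles for Cy3 and triangles for Cy5, NC 10W in black and ABI 4W in orange. The choroid plexus list is at −2.52 and −2.56 in NC 10W and −1.36 and −1.46 in ABI 4W, and the striatal list in ABI 4W is above NC 10W but near NC P14.

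The cortical tissue itself was checked with 32 genes of cortical projection neurons. The 31 compared genes had a median difference of −0.01, and 1 was called lower and none higher. *Fezf2* and *Bcl11b*, which specify corticospinal neurons, had differences of −0.52 and −0.15, and of 0.01 and 0.43. *Tbr1* (0.16 and 0.06) and *Cux2* (−0.12 and −0.11), markers of deep and upper layers, were likewise not called, and *Slc17a7*, the vesicular glutamate transporter, differed between the dyes (−1.13 and −0.15).

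Among genes of axon growth and regeneration none of 31 was called, with a median of 0.12. In the axon guidance list 1 of 42 genes was called, *Ntn4*, a secreted netrin, which was not above background in ABI 4W and had a bound of −1.11 and −1.13. In the list of neurotrophic and growth factors 1 of 45 genes was called. *Gdnf*, the trophic factor of dopaminergic and motor neurons, lay at −4.55 and −4.60 in NC 10W and at −2.87 and −3.50 in ABI 4W, or 2.63-fold higher. It reached −3.32 in NC P14 on the mean of both dyes, against −3.18 in ABI 4W and −3.82 in NC P35, and was not called against NC P35.

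A few genes of activated phagocytes were higher in ABI 4W. Of 19 compared genes 4 were called higher and 1 lower, against 0.83% and 0.737% of all genes. The median was 0.34, and 14 had positive differences with both dyes, against 36.8% of all genes. Without the 2 genes given as bounds, which entered through ABI 4W alone, the median was 0.22. Of the remaining 17 genes 2 were called higher and 1 lower. *Cst7*, a cystatin of activated microglia, was not above background in NC 10W and lay at −3.30 and −3.38 in ABI 4W, or at least 3.48-fold higher. *Lgals3*, galectin-3, lay at −2.83 and −2.80 in NC 10W and at −2.03 and −2.19 in ABI 4W, or 1.63-fold higher. *Itgax*, the integrin CD11c, had a bound of 1.88 and 0.74, and *Lyz1*, lysozyme, rose by 1.30 and 0.63. *Ch25h*, which makes 25-hydroxycholesterol, fell by 0.44 and 0.54 to the lowest level of the 8 pools.

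In ABI 1W the level of *Cst7* was 0.39 on the mean of both dyes, that of *Lgals3* 3.21 and that of *Itgax* −1.23, against −3.34, −2.11 and −4.33 in ABI 4W. The median of the phagocyte list was 3.17 and 3.26 in ABI 1W, 0.28 and 0.16 in ABI 4W, and −0.80 and −0.46 in NC 10W. *Spp1* (−0.12 and −0.24) and *Gpnmb* (−0.29 and −0.24), both of phagocytes that clear lipid, had small negative differences. *Acp5* (0.82 and 0.59), *Lilrb4a* (0.71 and 0.76), *Tlr1* (0.78 and 0.72) and the calcium binding protein *S100a4* (1.04 and 0.76), which myeloid cells express, were called higher and were chosen for mention after their values had been seen. *Ffar2* and, as a bound, *Sirpb1b*, which myeloid cells also express, were called lower.

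None of 19 homeostatic microglia genes was called. Their median was 0.21, 12 were positive with both dyes and none was negative with both, against 36.8% and 22.4% of all genes. Such counts were not particular to microglia. Of 19 homeostatic astrocyte genes 16 were positive with both dyes, as were 20 of 24 ribosomal protein genes, and none in either list was negative with both. *Trem2* (0.51 and 0.34) and its adaptor *Tyrobp* (0.44 and 0.40), and the receptors *Csf1r* (0.52 and 0.18) and *Gpr34* (0.80 and 0.32), had the higher values, whereas *P2ry12* had 0.28 and 0.08 and *Tmem119* −0.33 and 0.11. The class II presentation list (median 0.28, 9 genes) and the T and cytotoxic lymphocyte list (0.03, 15 genes) also had no call.

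Of 26 chemokines and interleukins compared, 3 were called higher and 1 lower, against 0.83% and 0.737% of all genes, with a median of 0.37. Without the genes given as bounds, 2 of 22 were called higher and none lower. *Ccl3*, a chemokine of activated microglia, was not above background in NC 10W and lay at −3.00 and −3.43 in ABI 4W, or at least 3.77-fold higher. *Cxcl5*, a neutrophil attractant, lay at −4.03 and −3.78 in NC 10W and at −2.38 on both arrays of ABI 4W, or 2.87-fold higher, and *Cxcl10*, an interferon-induced chemokine, rose by 0.96 and 1.09. *Cxcl9*, induced by the same pathway, was above background in NC 10W alone, with a bound of −0.70 and −1.06. *Irf7*, the regulator of interferon genes, fell by 0.76 and 0.54, and the interferon list had no other call among 29 genes (median 0.15).

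Among 21 reactive astrocyte genes, 3 were called higher and none lower (median 0.16), against 0.83% and 0.737% of all genes. *Gfap*, the intermediate filament of astrocytes, lay at 1.12 and 1.21 in NC 10W and at 1.97 and 2.40 in ABI 4W, or 2.03-fold higher, and its 2 other probes had 0.99 and 1.30. In ABI 1W it lay at 4.16 on the mean of both dyes, against 2.18 in ABI 4W and 1.16 in NC 10W. *C4b* (NM_009780), a complement component of astrocytes and other glia, lay at 0.42 and 0.37 in NC 10W and at 2.25 and 1.98 in ABI 4W, or 3.29-fold higher, and stood at 3.52 in ABI 1W. The third called gene was *Cxcl10*. *Vim* (0.56 and 0.23), *Serpina3n* (−0.26 and 0.14) and *Lcn2* (−0.32 and −0.40) were not called, nor was any of 19 homeostatic astrocyte genes (median 0.20). Of the other complement genes, *C6*, of the terminal pathway, was called lower (−1.01 and −0.55) and had 0.84 against NC P35. *Thbs4*, a thrombospondin of astrocytes, was higher (1.30 and 0.76) and was chosen after its values had been seen.

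STAT3, which becomes active in reactive astrocytes, binds the sequence TTCNNNGAA, and this was searched for in the same way. Of all 32851 windows 8.3% held it, beside 14.3% of 14 windows of the called choroid plexus genes and 13.3% of 15 windows of the called striatal genes. Of the 2 windows of the called astrocyte genes 1 did, that of *Gfap* (chr11:102897151-102897450, minus strand, GRCm38.p6), shown here 5′ to 3′ with the match in capitals.
Gfap: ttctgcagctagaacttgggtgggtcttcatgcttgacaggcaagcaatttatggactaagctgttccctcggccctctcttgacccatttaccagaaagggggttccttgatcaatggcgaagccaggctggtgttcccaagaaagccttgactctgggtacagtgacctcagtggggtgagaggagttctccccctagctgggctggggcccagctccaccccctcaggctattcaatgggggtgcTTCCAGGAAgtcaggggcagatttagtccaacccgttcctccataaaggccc
A match is a description of the letters in this window, and binding was not measured.

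Some genes of red blood cells were lower. Of 10 blood genes compared, 3 were called lower and none higher (median −0.17), against 0.737% and 0.83% of all genes. Of the 10 genes, 5 had their lowest level of the 8 pools in ABI 4W, against 2.95% of all genes. The beta globin genes *Hbb-b2* (2.63 and 2.56 in NC 10W, 2.09 and 2.05 in ABI 4W) and *Hbb-bs* (1.53 and 1.24, 0.54 and 0.77) were called, as was *Alas2*, which starts heme synthesis in erythroid cells (−0.48 and −0.61, −0.96 and −1.13). *Hba-a1* (−0.38 and −0.46) and *Hbb-bt* (−0.19 and −0.38) did not pass both limits. The globin genes are near-identical copies, so that their probes can share signal. With symmetric limits of 1.5-fold the calls of *Hbb-b2*, *Hbb-bs* and *Alas2* were lost.

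**Figure D5:**
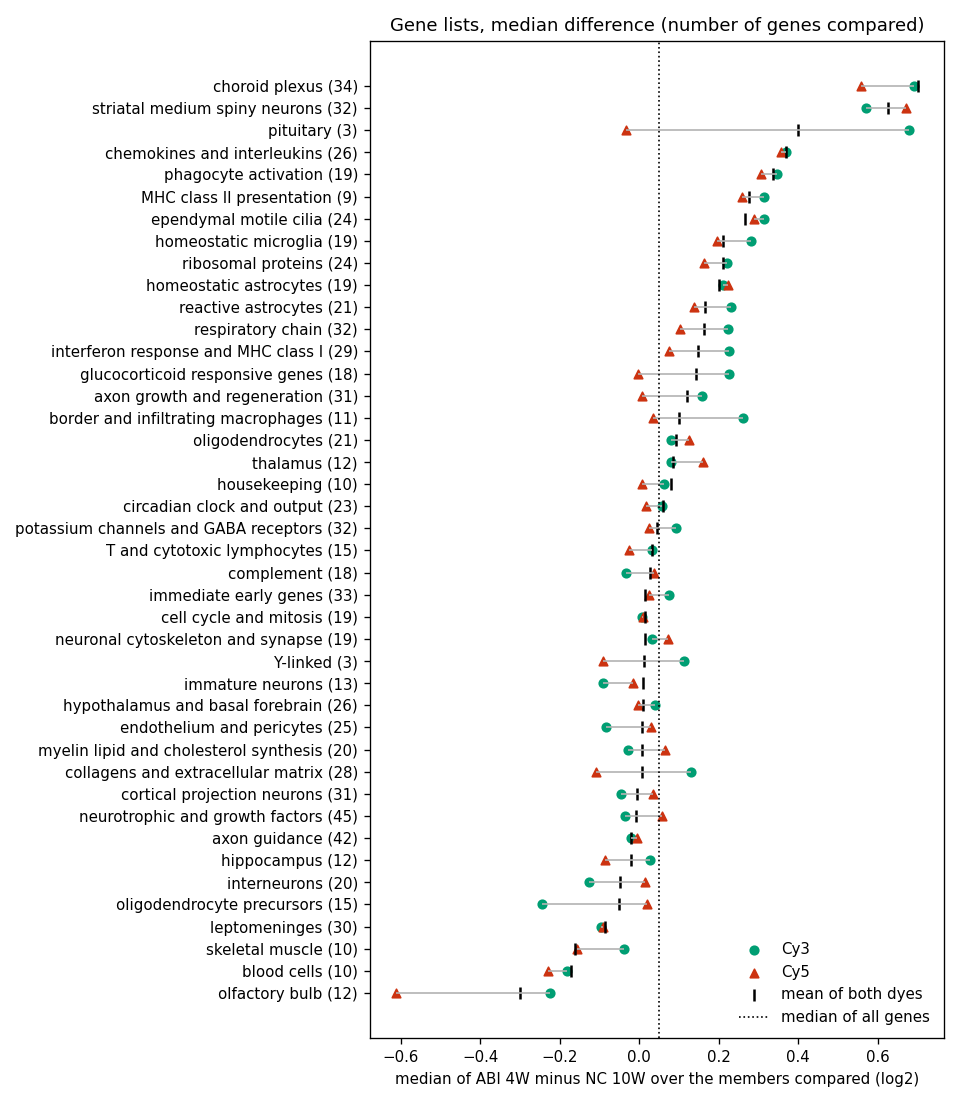
Median difference between ABI 4W and NC 10W over the compared members of each gene list (log2), with the number of genes in brackets, circles for Cy3, triangles for Cy5 and a bar for the mean of both dyes. The dotted line is the median of all genes, 0.05. The choroid plexus (0.70) and striatal (0.63) lists stand at the top and the olfactory bulb list (−0.30) at the bottom.

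Of the 43 lists, 23 had no called gene. Among these were oligodendrocytes (21 genes, median 0.09), endothelium and pericytes (25, 0.01), the respiratory chain (32, 0.16), ribosomal proteins (24, 0.21) and cholesterol synthesis (20, 0.01). Of 33 immediate early genes 1 was called, *Maff* (0.64 and 0.65). The 3 Y-linked genes compared had a median of 0.01 and differences between −0.11 and 0.24, and no gene of the skeletal muscle or pituitary lists was called. The *Gapdh* probe compared had −0.67 with Cy3 and −0.05 with Cy5.

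Of the genes outside the lists that were measured in both pools, *Tex22* (1.33 and 2.01), *Dach1*, a nuclear factor expressed in the striatum and cortex (1.29 on the mean of both dyes), and *Musk*, the receptor kinase of the neuromuscular junction (1.58 and 0.94), were among the 15 highest, which otherwise held *Cxcl5*, *Gdnf*, *C4b*, *Ido1* and choroid plexus genes. The largest bounds upward outside the lists were those of *Olfr619* and *Vmn1r45*, a smell and a pheromone receptor, and *Ndst4*, a heparan sulfate enzyme. The 438 olfactory and vomeronasal receptors compared had 8 genes called higher and 7 lower, where 0.83% and 0.737% of all genes were called.

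Among the lower genes, the 15 with the largest changes measured in both pools included *Vipr2*, a receptor of vasoactive intestinal peptide (−0.90 and −1.05), *Ppm1j*, a protein phosphatase (−1.02 and −0.99), *Macc1* (−0.73 and −1.23), *Eps8l1* (−0.97 and −1.09), *Lbhd2* (−1.04 and −0.74), *Iqgap3* (−0.61 and −1.46) and *Map3k8*, a kinase of the NF-κB pathway (−1.33 and −0.46). *Ccdc78*, *Ffar2*, *Spag11b*, *Ugt1a10* and *B430306N03Rik* were also called, and each had a positive difference against NC P35. Outside the lists of tissue markers, where *Ms4a15* had the largest bound, the largest bounds downward were those of *Cxcl17* (at least 3.75-fold), *Olfr1023*, *Mov10l1*, *Ckap2l*, *Vmn2r13*, *Sirpb1b* and *B4galnt3*. *Mov10l1*, a helicase of the germ line, was above background in NC 10W alone of all 8 pools and was at least 2.81-fold lower in ABI 4W.

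Of the genes chosen by the study for RT-PCR, 7 were compared, of which *Ttr* and *Kcne2* were called higher and *Mov10l1* lower. *Gdf3* (−0.13 and 0.17) and *Phactr2* (0.40 and −0.09) were not called, and *Acod1* (also known as *Irg1*), *Xist*, *Msr1*, *Il4*, *Cytip* and *Asb17* were not well above background in either pool. Of the 134 genes called higher, 48 (35.8%) lay above all 7 other pools with both dyes, against 6.88% of all genes, and of the 119 called lower 21 (17.6%) lay below all 7, against 2.95%. Since these shares use the ABI 4W arrays that also made the calls, they describe the called genes and are not a test.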

How the data were processed

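Each RNA pool was hybridized to Agilent 8 × 60K arrays with a single dye per array. The spot intensities deposited by the authors came from Agilent Feature Extraction 11.0.1.1, which subtracted the background and corrected spatial trends but did not scale the arrays to each other. The deposited value table holds the rounded intensities of the labeled channel. The other columns that were used are the median signals of spots and of their background, the signal errors, and flags with no unit.

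Control spots and spots flagged as outliers were removed. Intensities were floored at 1, the log2 was taken relative to the 75th percentile of the array, and spots of a probe were averaged. Across the 4 arrays, 68.5% to 72.2% of the spots were well above background and 1.10% to 1.42% were saturated; the number of arrays limits the precision. Probes were named by RefSeq accession (GRCm38.p6 table, 26582 of 55681 probes, 20145 genes). A pool below background was held at the higher of its own signal and the lowest signal well above background on that array. Every array was compared within its dye, and ABI 1W shares the NC 10W control. With 1 pool per condition no statistical test was made. Named genes were the 15 largest measured calls and the 8 largest bounds in each direction, the called members of 43 gene lists, up to 4 bright members of each list described and the genes of the RT-PCR. Further members of the described lists were also named, some of them because of their values. Members and lists were chosen with earlier results of these data known. The alternatives were 14 planned ones and 1 chosen after seeing the data, which left out probes saturated on any array. The code that makes the calls was tested on simulated data with known differences, which says nothing about the calls themselves. Some called genes are counted in their lists but not reported here by name. Python 3.11.15, numpy 2.4.6, pandas 2.3.3, R 4.3.3 and limma 3.58.1 were used.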

Additional observations from a re-analysis of the deposited data

Results flagged for a closer look

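Some called genes moved the opposite way in another operated pool, with both dyes in each case; the difference was not tested. In ABI 1W, which shares the NC 10W control, the differences were 2.14 for *Alas2*, 1.98 for *Hbb-b2*, 1.98 for *Hbb-bs*, 2.35 for *Ch25h*, 1.14 for *Irf7*, 0.96 for *Iqgap3* and 1.17 for *Sirpb1b*, all of which were lower in ABI 4W. *Ankk1* (−0.65) and *Sostdc1* (−0.73) were below the control in ABI 1W and higher in ABI 4W.

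In NBI 4W against NC P35, striatal genes called higher in ABI 4W had negative differences. The values were −0.50 for *Adora2a*, −0.83 for *Drd1*, −0.55 for *Gng7*, −1.02 for *Ido1*, −0.65 for *Pde10a*, −0.60 for *Rarb*, −0.63 for *Rgs9*, −0.65 for *Scn4b*, −1.16 for *Sh3rf2*, −0.96 for *Slc35d3* and −0.67 for *Tac1*. Outside that list they were −0.91 for *Ankk1*, −2.55 for *Avp*, −0.65 for *Dach1*, −0.87 for *Gpx6*, −0.92 for *Lrrc10b*, −1.33 for *Musk*, −0.66 for *Nexn*, −0.88 for *Serpina9* and −1.60 for *Six3os1*. The ciliary genes *Ccdc153* (−0.47) and *Tmem212* (−0.70) were also below NC P35. The blood genes *Alas2* (0.95), *Hbb-b2* (0.99) and *Hbb-bs* (1.05) were above it, while they were lower in ABI 4W. The difference between the comparisons was not tested.

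The channel of the dye that was not used had spots well above background on the ABI 4W arrays, 1.003% of spots on the Cy3 array and 1.002% on the Cy5 array, against 0.755% and 0.821% in NC 10W. The share in NC 10W was the lowest of all pools with both dyes. In the remaining pools it ranged from 0.830% to 1.435%, so ABI 4W lay within their range.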

How the results depend on the processing

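Of 94 named genes with a call, 18 kept it under every alternative that gave them a value, among them *Ttr*, *Kcne2*, *Folr1*, *Kl*, *C4b*, *Cxcl5*, *Calb2* and *Doc2g*. Some alternatives could not remove a call. A call needs both dyes, so Cy3 alone and Cy5 alone keep every call, and symmetric limits cannot touch a higher call. Dropping the background filter could only widen a bound. Requiring all 4 arrays above background left a gene its values or gave none. Leaving out saturated probes kept all 94 calls. Genes without a value were not counted as lost, namely 21 with all 4 arrays above background and 8 with NC P35. The counts of higher and lower genes were 69 and 32 with normexp, 51 and 498 without scaling, 499 and 588 without the background filter, 29 and 9 with 2-fold limits, 1113 and 1500 with Cy3 alone, 376 and 648 with Cy5 alone, 965 and 294 with NC P35 as the control, and 297 and 481 when every probe was counted. The lower genes numbered 78 when all 4 arrays had to be above background, 46 with symmetric limits, and 22 when the difference also had to exceed the propagated error. The share of lower calls, 47.0%, was 31.7% with normexp, 25.6% with symmetric limits, 23.7% with 2-fold limits, 19.3% with the error limit, 23.4% with NC P35, 57.4% with Cy3, 63.3% with Cy5 and 61.8% over probes. The choroid plexus median was 0.58 with normexp, 0.54 without scaling and 0.80 with NC P35. The striatal median was 0.54 with quantile normalization and with loess, 0.47 without scaling and 0.069 with NC P35, and the olfactory bulb median was −0.61 with Cy5 alone. With NC P35 the direction turned for *Avp* (−1.75), *B430306N03Rik* (0.57), *C6* (0.84), *Ccdc78* (0.79), *Drd1* (−0.0077), *Ffar2* (0.71), *Spag11b* (0.30) and *Ugt1a10* (1.67). Scaling to the median, quantile normalization, loess and leaving out saturated probes kept both counts within 1.5 times. The causes were not tested. All differences were taken between arrays of the same dye. No paired analysis was possible because each condition is 1 pool, with no replicate numbers in the labels to pair samples by.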
